A study of Mus musculus with 12 samples.

Results

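The comparison covers kidney organoids before and after 7 days of culture, on 6 of the 12 mouse arrays of the study. Its members are the 3 arrays of organoids taken directly after assembly (day 0) and the 3 arrays of organoids cultured for 7 days (day 7), chosen by their titles. The organoids of both groups were assembled from 3 parts: nephron progenitors derived from mouse ES cells, a ureteric bud of the same origin, and stromal progenitors taken from E11.5 kidney. Per the labels, the genotype was ICR, wild type, plus stem cells of B6 and 129SV background. Culture was on a transwell in Matrigel with DMEM/F12 and FBS. The stroma thus came from freshly isolated embryos, and the other lineages from stem cells. E11.5 kidney of ICR wild type mice, fresh (1 array) and after 7 days in the same medium (1 array), served as a second comparison. Whether the replicates were grown separately is not stated, and p-values therefore describe array-to-array spread, which may be technical. All day 7 arrays shared 1 slide with day 0 replicate 3, and day 0 replicates 1 and 2 were on the other slide with the kidney arrays.

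A kidney forms by exchange between its parts. Nephron progenitors and stroma send growth factors to the ureteric bud, and Wnt signals from the bud turn progenitors into epithelium. The epithelia then lay down basement membrane, seal their junctions and take up transport work, while proliferation and the fuel that cells burn shift. Growth factor families, matrix, metabolism, the cell cycle, RNA and protein turnover, immune genes and patterning genes were therefore described as named lists, beside the same numbers for all genes.

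Of 16203 genes tested, 28.6% rose and 41.9% fell, 70.5% in all, between day 0 and day 7 (limma, two-sided, adjusted p under 0.05), and their median log2 change was -0.17. By at least 2-fold, 16.5% rose and 8.9% fell. A share of members near these values is therefore the background of this comparison. Levels are log2 signal relative to the 75th percentile of the array, and changes are log2 differences ± the standard error of the fit. Because the day 0 arrays were dimmer at their 75th percentile (126 to 138) than the day 7 arrays (201 to 206), dim genes carry the most doubt. Of 4 equal bins of the tested genes by level, 36.9% rose and 32.8% fell in the dimmest, and 18.2% rose and 49.0% fell in the brightest (median -0.24), against which falls of bright gene groups should be read. Another background correction, called normexp here, compresses dim signals, and list medians under it are given where they moved by more than 1.5 times. Where a gene was not well above background on any array of a group, a fold printed for it is a lower bound, computed against the dimmest measured signal. Log2 changes are printed as fitted, also for such genes.

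Regulatory sequence can be set beside 3 of the gene groups. The promoter windows, from RefSeq on GRCm38.p6, reach from 250 bases before to 50 bases after each gene start, and both strands were searched. Interferon-induced genes are known for an element of GAAA, any 2 bases and GAAA again, which binds interferon regulatory factors. It was in 13 of the 21 listed interferon genes with a window (61.9%) and in 444 of 12405 tested genes (3.58%). The element TGATGNAA is known to bind Atf4, the factor that answers amino acid shortage, with its partners. It was in 14 of 47 members of the amino acid list (29.8%), against 2.79% of tested genes. Mitotic genes are known for TTTGAA together with CCAAT. Both were in 15 of 22 mitosis genes (68.2%), in 3 of 21 replication genes (14.3%) and in 5.9% of tested genes. A match is a description of these letters and not a bound site.

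The following 250 bases before the gene start are those of the largest risers of each list that hold the element there. They are written 5′ to 3′ on the strand of the gene, with the element in capitals on either strand. The first 3 show the interferon element, the next 3 the Atf4 element, and the last 2 the pair of mitotic elements.
Ifit3, chr19:34583279-34583528 (+): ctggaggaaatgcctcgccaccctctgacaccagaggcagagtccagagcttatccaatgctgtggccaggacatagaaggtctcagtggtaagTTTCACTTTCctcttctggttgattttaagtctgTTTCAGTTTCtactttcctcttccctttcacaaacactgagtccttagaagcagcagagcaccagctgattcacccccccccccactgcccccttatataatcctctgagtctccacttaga
Gbp2, chr3:142620413-142620662 (+): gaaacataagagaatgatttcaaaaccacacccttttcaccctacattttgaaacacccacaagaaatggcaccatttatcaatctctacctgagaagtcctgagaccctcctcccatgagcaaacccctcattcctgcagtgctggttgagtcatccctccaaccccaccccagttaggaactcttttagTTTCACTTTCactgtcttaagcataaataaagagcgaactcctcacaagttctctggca
Cxcl10, chr5:92348890-92349139 (-): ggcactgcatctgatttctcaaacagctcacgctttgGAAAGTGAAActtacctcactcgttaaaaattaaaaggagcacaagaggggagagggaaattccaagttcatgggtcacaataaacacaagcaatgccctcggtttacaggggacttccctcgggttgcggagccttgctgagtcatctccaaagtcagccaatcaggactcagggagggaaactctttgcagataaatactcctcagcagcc
Nupr1, chr7:126625471-126625720 (-): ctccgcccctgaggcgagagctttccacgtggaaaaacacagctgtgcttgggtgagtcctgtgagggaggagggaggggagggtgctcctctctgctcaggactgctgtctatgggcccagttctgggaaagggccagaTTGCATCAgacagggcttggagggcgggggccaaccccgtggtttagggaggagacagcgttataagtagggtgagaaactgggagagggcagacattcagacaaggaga
Chac1, chr2:119350992-119351241 (+): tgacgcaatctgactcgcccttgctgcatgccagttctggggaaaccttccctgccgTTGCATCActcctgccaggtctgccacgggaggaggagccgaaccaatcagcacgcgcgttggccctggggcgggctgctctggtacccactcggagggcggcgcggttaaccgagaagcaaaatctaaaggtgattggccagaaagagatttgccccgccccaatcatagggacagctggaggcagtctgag
Pycr1, chr11:120643749-120643998 (-): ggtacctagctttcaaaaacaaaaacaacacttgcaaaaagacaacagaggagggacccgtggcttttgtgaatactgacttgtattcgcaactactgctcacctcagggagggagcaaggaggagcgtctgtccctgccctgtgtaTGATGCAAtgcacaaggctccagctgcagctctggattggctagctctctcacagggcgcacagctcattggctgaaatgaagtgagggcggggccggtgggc
Prc1, chr7:80294226-80294475 (+): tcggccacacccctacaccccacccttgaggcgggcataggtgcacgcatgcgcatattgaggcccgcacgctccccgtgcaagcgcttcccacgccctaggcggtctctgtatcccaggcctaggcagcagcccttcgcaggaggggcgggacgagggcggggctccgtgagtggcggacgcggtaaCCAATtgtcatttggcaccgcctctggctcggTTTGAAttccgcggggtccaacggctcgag
Mki67, chr7:135716380-135716629 (-): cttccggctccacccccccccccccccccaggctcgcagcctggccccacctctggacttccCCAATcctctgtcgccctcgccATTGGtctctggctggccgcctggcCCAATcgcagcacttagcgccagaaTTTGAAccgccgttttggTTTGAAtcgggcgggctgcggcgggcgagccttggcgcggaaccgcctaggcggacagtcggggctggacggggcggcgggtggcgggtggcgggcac

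Markers of the cells an organoid should hold were present at both times. The sum of 8 nephron progenitor markers was 155 to 170 times the 75th percentile at day 0 and 156 to 188 times at day 7. The sum of 8 ureteric markers was 15.8 to 17.8 and then 35.2 to 39, and that of 6 stromal markers was 198 to 207 and then 173 to 191. The stromal members moved apart, with Foxd1 (-3.33), Meis1 (-1.80) and Pdgfra (-0.42) lower and Tcf21 (1.21), Col1a1 (0.93) and Pdgfrb (0.90) higher. Markers of other cells were followed as well. Summed markers of neurons were 7.94 to 9.0 at day 0 and 0.703 to 0.929 at day 7, and those of red cells 18.7 to 105 and 0.285 to 0.721. 10 markers of liver and gut endoderm went from 0.222 to 0.592 at day 0 to 6.42 to 7.26 at day 7, with Alb, Apoa1 and Cdx2 below background on all arrays. Of 7 such markers compared with E11.5 kidney, 6 were also higher in cultured than in fresh kidney (median 2.02, 1 array each). Whether endoderm cells were present was not tested. In such whole organoids, fewer cells of a type and less RNA per cell cannot be told apart.

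Genes of the TGF-beta and BMP family, which drive matrix deposition and pattern the forming nephron, mostly rose. Of 61 listed genes 56 were tested, 36 rose and 15 fell, and their median change was 0.66. Ligands moved both ways (12 rose and 7 fell of 20), whereas 12 of 13 targets rose with a median of 0.90. Inhba, which encodes the subunit of activin A, was at -2.90, -3.68 and -3.71 before culture and at 3.20, 2.47 and 2.74 after it (6.24 ± 0.28, 75.4-fold, adjusted p = 7.15e-06). Every day 7 array lay above every day 0 array, a state that 30.6% of the tested genes showed, and 45.8% showed the opposite. Fstl3, a secreted inhibitor of activin, rose with it from -1.96, -2.49 and -1.92 to 2.50, 2.34 and 2.30 (4.51 ± 0.17).

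Of the ligands, 7 fell. Gdf5, which marks forming joints, was even on the day 0 arrays at 1.86, 1.96 and 1.88 and fell to -3.08, -3.14 and -3.32. That is a change of -5.08 ± 0.09, or 33.8-fold lower (adjusted p = 1.05e-06), and another probe gave -3.07. Gdf6 (-1.79), its close relative, and Gdf11 (-2.03) fell too. Tgfb2 fell from 4.54, 4.77 and 4.82 to 2.60, 2.42 and 2.48, while Tgfb1 (3.46) and Tgfb3 (1.3) rose, so the ligands of one receptor pair moved in opposite directions. Among receptors, Eng (3.46) and Acvrl1 (2.92), both known from vessel walls, rose most, and the type I receptor Tgfbr1 fell by 1.15. Of 6 endothelial markers 5 rose beside them, Cdh5 (4.52), Tie1 (4.01), Emcn (2.81), Tek (2.20) and Pecam1 (1.91). Tek was below background at day 0 and at least 1.18-fold higher at day 7, and its change had the opposite sign with normexp. The sixth, Kdr, fell by 1.06 with another probe at 1.01. The sum of the 6 markers did not rise, at 11.9 to 13.1 at day 0 and 8.12 to 12.1 at day 7. The part of endothelial cells in these results was not tested. Of 11 tested extracellular inhibitors 6 rose and 4 fell (median 0.62, 0.24 with normexp), with Nog (-0.90) and Chrdl1 (-2.21) among those that fell.

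**Figure D1:**
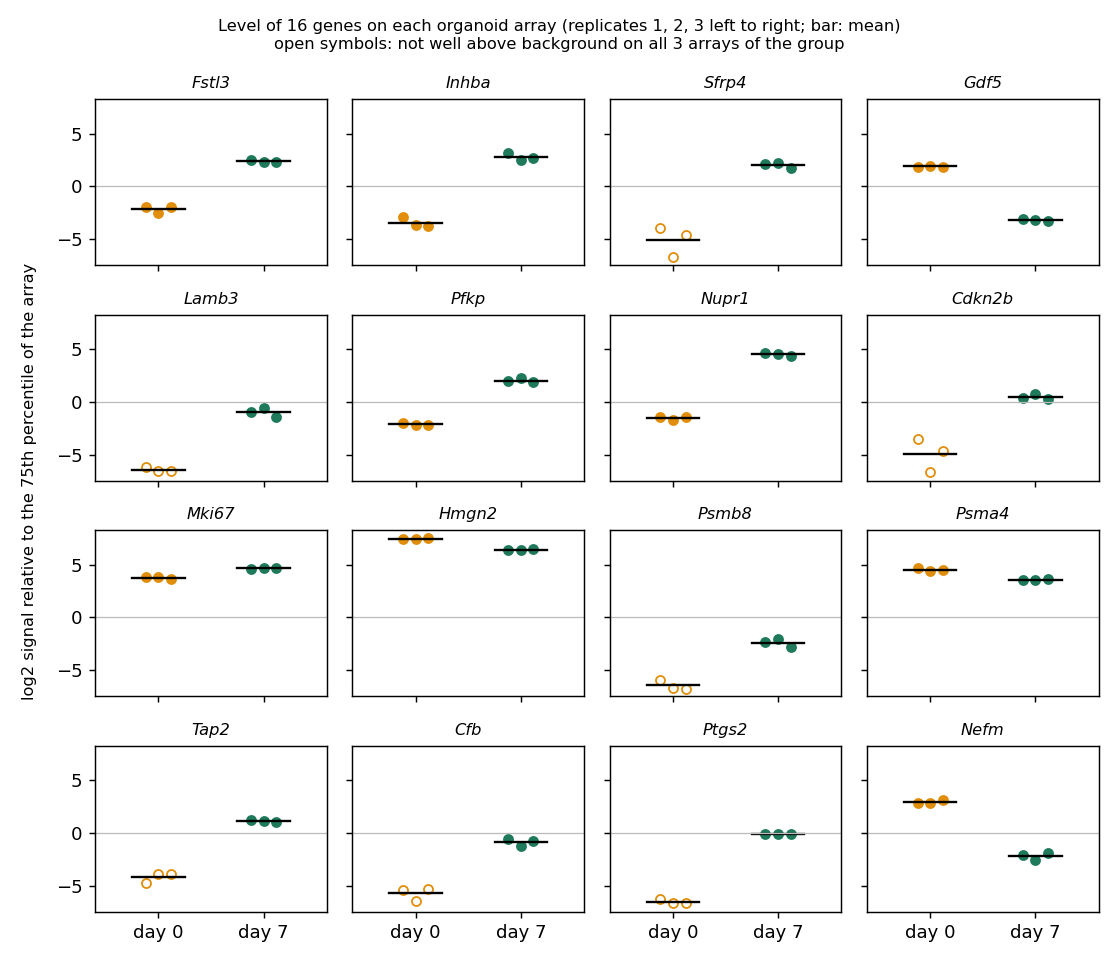
Log2 signal relative to the 75th percentile for 16 genes (vertical axis) on each organoid array at day 0 and day 7 (horizontal axis), with bars at the group means and open symbols where the gene was not well above background on all 3 arrays of the group. Inhba runs from -2.90 or less to 2.47 or more, Gdf5 and Nefm run downward, and in each panel the day 7 points lie apart from the day 0 points.

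Wnt ligands, made by bud and stroma, act through frizzled receptors, are amplified by R-spondins and are held in check by secreted inhibitors. In organoids, inhibitors and targets rose while R-spondins fell. Of 54 Wnt genes tested 32 rose and 9 fell (median 0.59, or 0.32 with normexp). 9 of 11 secreted inhibitors and 8 of 10 targets rose and none fell, with medians of 1.26 and 1.24. Sfrp4, an inhibitor that binds Wnt proteins, was at -3.92, -6.70 and -4.56 at day 0, where it was well above background on 1 array, and at 2.14, 2.26 and 1.76 at day 7. All day 7 arrays were higher (7.11 ± 0.67, adjusted p = 0.000146). Lef1, a transcription factor of the pathway and itself a target, rose from 0.44, 0.24 and -0.01 to 2.10, 2.10 and 2.28 (1.94 ± 0.13). Sp5 (2.92) and Tcf7 (1.62) rose as well. Axin2, the target most often used as a readout, was at -0.48, -0.32 and -0.98 and then at -0.37, -0.28 and -0.36, so its groups overlapped and its difference was 0.26 ± 0.17 (adjusted p = 0.212).

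All 3 tested R-spondins fell. Rspo2 dropped from -2.31, -2.37 and -1.98 to -4.35, -5.53 and -4.86 (-2.69 ± 0.29, adjusted p = 0.000274), Rspo1 changed by -1.17 and Rspo3 by -0.64. The R-spondin receptor Lgr5 rose (2.21). Among Wnt ligands, Wnt7b of the bud stalk (3.03), Wnt16 (2.10) and Wnt5a (1.09) rose, and Wnt6 (-1.26) and Wnt8b (-1.40) fell.

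FGF and EGF ligands act through receptor tyrosine kinases, and Sprouty and Etv genes are their common targets. Here 13 of 16 feedback inhibitors and targets rose and none fell, with a median of 0.51. Across the 48 tested members 31 rose and 5 fell (median 0.58, 0.53 with members below background at their lower bound, and 0.09 with normexp). Spry1, which restrains Ret signalling in the bud, moved from 2.88, 2.98 and 2.90 to 4.40, 4.52 and 4.43, a narrow spread at both times (1.53 ± 0.08, adjusted p = 1.03e-05). Etv4, a factor of branching tips, rose from 2.40, 2.29 and 2.64 to 3.79, 3.90 and 3.98 (1.45 ± 0.11). Hbegf, an EGF-type ligand of injured and growing epithelium, rose 11.1-fold, from -1.52, -1.50 and -1.14 to 2.18, 2.06 and 2.0. Of the receptors Erbb4 rose (4.64 ± 0.27) and Egfr fell (-0.82), though another probe of Egfr gave 0.32. Fgfr3 (1.32) and Fgfr4 (1.41) rose and Fgfr2 fell by 0.70, with another probe at 0.24.

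The insulin-like growth factors fell, 3 of 4 proteases and protease inhibitors that act on their carriers rose, and the binding proteins split. Igf2, an imprinted fetal growth factor, went from 3.39, 3.22 and 3.26 to 1.56, 1.53 and 1.45 (-1.77 ± 0.08, adjusted p = 8.06e-06), and Igf1 fell by 0.65. Pappa (2.54) and Pappa2 (3.90), proteases that release the ligands from binding proteins, rose. Stc2, an inhibitor of these proteases, rose from -4.06, -4.82 and -4.13 to 1.98, 2.15 and 1.76 (6.30 ± 0.22, 79.0-fold). Of the 7 binding proteins 4 rose, among them Igfbp7 (4.21) and Igfbp6 (3.99), and Igfbp5 (-0.84) and Igfbp4 (-0.47) fell.

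In the Hedgehog pathway, which shapes the ureter wall, all 3 ligands and the targets Gli1 and Hhip (1.72) rose, while 6 of 8 receptors and transducers fell. Gli1 rose from 1.83, 0.89 and 1.11 to 3.26, 2.97 and 3.37 (1.92 ± 0.25, adjusted p = 0.000606). Gli3, the repressor of the pathway, fell from 3.39, 3.59 and 3.50 to 2.04, 2.03 and 2.23 (-1.39 ± 0.09). The ligands were dim, with Shh (2.48) at least 1.62-fold higher and at -0.15 with normexp, and Ptch1, a further target, differed by 0.58 without passing the test.

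Retinoic acid, made by stromal Aldh1a2 in the embryonic kidney, maintains Ret in the bud. Aldh1a2 fell from 6.78, 6.71 and 7.00 to 4.93, 5.0 and 4.99 (-1.85 ± 0.10, adjusted p = 1.2e-05), while Aldh1a1 (3.71) and Aldh1a3 (2.58), 2 other enzymes of this step, rose. The binding proteins Crabp1 (-6.47) and Crabp2 (-3.65) and the uptake receptor Stra6 (-1.97) fell. Rbp4, the carrier of retinol in blood, rose from -2.44, -2.98 and -2.37 to 2.0, 2.43 and 2.02 (4.75 ± 0.20). Across 20 tested members 8 rose and 10 fell.

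Of 67 tested axon and vessel guidance genes 26 rose (38.8%) and 29 fell (43.3%), beside 28.6% and 41.9% of all genes. The counts by class, each small, were as follows. 11 of 20 semaphorins, secreted or membrane-bound repellents, rose and 6 fell, whereas 6 of 10 plexins and neuropilins, their receptors, fell and 4 rose. Of 8 ephrins 5 fell and 1 rose, and of 12 Eph receptors 7 fell and 3 rose. Efna5 fell from 2.85, 3.05 and 2.87 to 0.98, 1.0 and 1.06 (-1.91 ± 0.08, adjusted p = 7.27e-06), and Efna1, the one that rose, changed by 2.50. Its receptor Epha2 rose 13.1-fold, from -1.15, -1.45 and -1.23 to 2.47, 2.42 and 2.43. Of 17 Slits, netrins and their receptors 7 rose, among them Robo4 (3.21) and Slit1 (2.90), and 5 fell. Netrin-1 (Ntn1) fell from 1.82, 2.06 and 2.0 to -0.32, 0.09 and -0.19 (-2.10 ± 0.13).

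Targets of the stretch-responsive factors YAP and SRF rose in 20 of 26 tested cases, and 1, Tead2 (-0.69), fell. Their median was 0.79 (0.70 with members below background at their bound). Ccn2, a matrix-bound growth factor regulator of scarring tissue, rose from 0.37, 0.24 and 0.75 to 6.76, 6.50 and 6.38 (6.09 ± 0.16, 68.3-fold, adjusted p = 2.08e-06). Ccn1 (2.62) and Ccn4 (2.93) rose with it. Structural targets moved less, such as Actn1 (1.33), Vcl (0.86) and Zyx (0.41), and Srf itself differed by -0.23 without passing the test.

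Matrix and adhesion genes rose broadly, with network collagens far ahead of fibrillar ones. Of 65 collagen and collagen enzyme genes 59 were tested, 48 rose and 6 fell (median 1.3). All 13 tested network, beaded and anchoring chains rose, with a median of 2.95, or 1.89 with normexp, and 8 of 11 fibrillar chains rose with a median of 0.88. Col4a4 and Col4a3, chains of the mature glomerular basement membrane, rose together. Col4a4 was at -4.94, -3.79 and -5.08 and then at 0.43, 0.04 and 0.31 (4.86 ± 0.34, adjusted p = 4.07e-05, another probe 2.77), and Col4a3 was below background at day 0 and at least 3.22-fold higher at day 7. The widespread chains Col4a1 (2.83) and Col4a2 (2.47) rose as well. Col9a1, a cartilage chain, fell from 2.68, 2.65 and 2.83 to 0.39, 0.99 and 0.36 (-2.14 ± 0.18). Other cartilage genes moved otherwise, with Acan (2.39) higher, and of 7 tested cartilage and bone markers 2 rose and 3 fell.

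Collagen needs hydroxylases, chaperones and crosslinking enzymes, and 18 of 21 of these rose. Lox, which crosslinks collagen and elastin, rose from -2.83, -3.35 and -2.94 to 1.96, 1.90 and 1.58 (4.86 ± 0.17, 29.0-fold). The prolyl hydroxylase subunits P4ha1 (2.12) and P4ha2 (2.92) and the lysyl hydroxylase Plod1 (1.29) rose, and Bmp1, which trims procollagen, fell by 0.64. 15 of 16 laminin and nidogen genes rose and none fell (median 1.53). Lamb3, a laminin chain of stratified and injured epithelium, was below background at day 0 and at -0.97, -0.55 and -1.40 at day 7, at least 10.8-fold higher (5.45 ± 0.23, adjusted p = 6.05e-06). Lama5, the alpha chain of mature kidney basement membrane, rose from 1.42, 1.51 and 1.06 to 4.65, 4.82 and 4.76 (3.41 ± 0.13).

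Among matrix proteases and their inhibitors 22 of 34 rose and 7 fell (median 0.88, 0.74 at the bounds and 0.45 with normexp). Adamts2, which trims procollagen, rose from -0.39, -0.19 and -0.05 to 4.41, 4.02 and 4.01 (4.36 ± 0.14), and another probe gave 2.76. Adamts18, a protease of branching epithelium, fell from 1.74, 2.01 and 2.20 to -0.77, -0.70 and -0.78 (-2.74 ± 0.12). In the plasminogen system both the activator Plau (4.91 ± 0.21) and its receptor Plaur (4.93) rose. 14 of the 23 listed metalloproteinases were too dim to be tested.

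Of 21 integrins 12 rose and 2 fell. Itgb6, an epithelial subunit known to activate latent TGF-beta, was below background at day 0 and at 0.48, 0.42 and 0.39 at day 7, at least 28.7-fold higher (5.88 ± 0.46, adjusted p = 6.58e-05, another probe 3.56). The collagen receptors Itga1 (4.25, another probe 2.02), Itga2 (3.45, at least 2.64-fold) and Itga11 (4.02) rose. Itga6 fell by 1.79 on its brightest probe, but another probe gave 2.98, so its direction depends on the probe. The same holds for the leukocyte subunit Itgal, at -2.0 and 0.82 on its 2 probes above background.

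**Figure D2:**
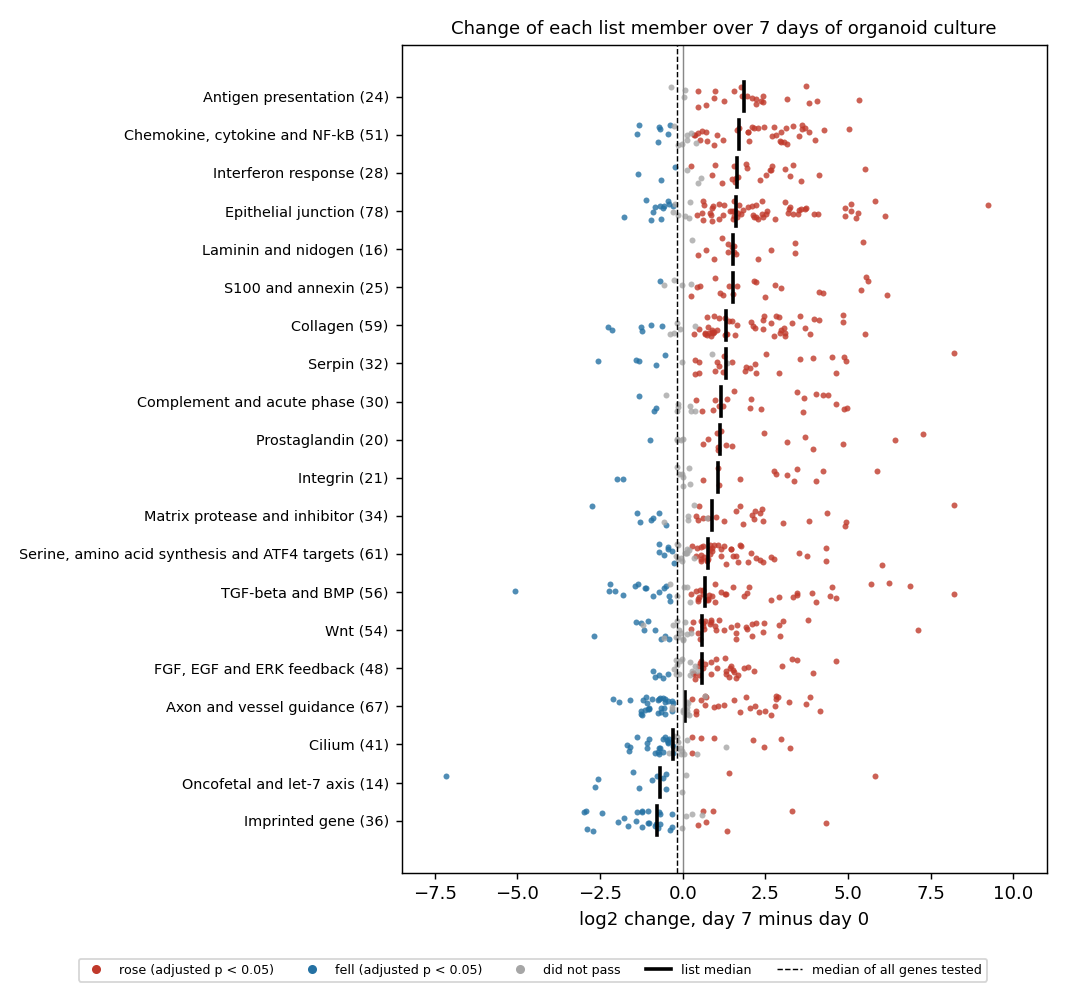
Log2 change from day 0 to day 7 (horizontal axis) of every tested member of 20 gene lists (rows, number tested in brackets), coloured by whether it rose, fell or did not pass at an adjusted p under 0.05, with thick bars at list medians and a dashed line at the median of all genes (-0.17). Antigen presentation (1.86) and chemokine genes (1.71) have the highest medians shown and imprinted genes (-0.78) the lowest, and most lists hold points on both sides of 0.

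Epithelial junction genes rose in 60 of 78 tested cases and fell in 12 (median 1.62, 1.57 at the bounds, 1.0 with normexp). 13 of 16 claudins, the pore-forming proteins of tight junctions, rose and none fell. Cldn2, the leaky claudin of the proximal tubule, was below background at day 0 and at -0.36, -1.20 and -0.63 at day 7, at least 12.8-fold higher (5.83 ± 0.22, adjusted p = 4.69e-06, another probe 2.23). Cldn5, a claudin of endothelium and podocytes, rose from -0.60, -1.01 and -0.51 to 2.70, 2.05 and 2.80 (3.23 ± 0.23). E-cadherin (Cdh1) rose from 0.40, 0.23 and -0.27 to 2.61, 2.87 and 2.54 (2.55 ± 0.19), while N-cadherin (Cdh2) fell from 4.99, 5.11 and 4.95 to 3.23, 3.20 and 3.34 (-1.76 ± 0.08). Neither gene's groups overlapped. The epithelial transcription factors Ehf (5.10), Elf3 (3.98) and Grhl2 (1.76) rose, as did 21 of the 23 tight junction partners and epithelial factors in the list.

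Keratins, the filaments of epithelium, split into 12 that rose and 8 that fell of 22. Krt19, a keratin of simple ducts, rose from -1.67, -2.53 and -1.61 to 4.27, 4.95 and 3.34 (6.13 ± 0.44, adjusted p = 4.48e-05). Krt8 (2.41) and Krt18 (2.42), the pair of all simple epithelia, rose alike. Krt5, a keratin of basal cells, was at -2.82, -2.78 and -3.50 before culture and at 2.27, 4.46 and -1.11 after it, so the day 7 arrays spread over more than the groups' gap (4.90 ± 1.29, adjusted p = 0.013). Anxa8 (0.06, 0.90 and -1.20 at day 7) and the desmosome gene Pkp1 (-0.48, 0.48 and -2.15) had the same order of day 7 arrays, with replicate 2 highest and replicate 3 lowest.

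S100 proteins and annexins, calcium-binding proteins of stressed and motile cells, rose in 20 of 25 cases and 1 fell. Anxa1, a mediator that dampens inflammation, rose from -0.62, -2.24 and -0.99 to 4.49, 4.15 and 4.19 (5.56 ± 0.40, 47.0-fold), and S100a6 rose from 2.15, 1.06 and 2.14 to 5.89, 6.08 and 5.71 (4.11 ± 0.30). S100a16, the member that fell (-0.67), had another probe at 3.08. Serpins, which inhibit serine proteases, rose in 24 of 32 tested cases and fell in 5 (median 1.3, 1.16 at the bounds, 0.62 with normexp). The alpha-1 antitrypsin genes Serpina1a (4.94), Serpina1c (4.64) and Serpina1e (4.51) are near-identical copies, so their probes may share signal. Serpini1, a serpin of neurons, fell from 0.87, 0.77 and 0.92 to -1.74, -1.87 and -1.55 (-2.57 ± 0.10).

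Most glycolytic enzymes rose, and many subunits of the respiratory chain fell by small amounts. 16 of 22 glycolytic enzymes rose and 3 fell, with a median of 1.54, and 6 of 10 glucose and lactate transporters rose (median 2.21, 1.72 at the bounds, 0.31 with normexp). Pfkp, an isoform of the enzyme that commits glucose to glycolysis, rose from -2.01, -2.19 and -2.16 to 1.99, 2.23 and 1.87 (4.15 ± 0.11, 17.8-fold, adjusted p = 2.08e-06), but another probe gave 1.20, so its size depends on the probe. Aldoc, an aldolase, rose from 0.91, 0.62 and 0.91 to 4.69, 5.2 and 4.66 (4.04 ± 0.17). Ldha, which turns pyruvate into lactate, rose from 7.03, 6.68 and 7.06 to 8.67, 8.70 and 8.70 (1.77 ± 0.12). Gapdh did not pass, with 8.79, 8.43 and 8.74 at day 0 and 8.80, 8.86 and 8.81 at day 7 (0.17 ± 0.11, adjusted p = 0.203).

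The steps on either side of the enzymes moved in the same direction. The glucose transporter Slc2a1 rose from 3.08, 3.24 and 3.17 to 5.91, 6.16 and 5.71 (2.77 ± 0.13), and Slc16a3, which exports lactate, rose from 1.91, 1.61 and 2.06 to 5.62, 5.78 and 5.51 (3.78 ± 0.14). Pdk1, a kinase that keeps pyruvate out of the mitochondrion, rose 5.74-fold. Bnip3 (2.72), Ero1a (3.05) and P4ha1, all known with these genes as hypoxia-induced, rose as well. A part of hypoxia in these changes was not tested. Gluconeogenic Pck1 of the proximal tubule rose from -3.25, -3.76 and -4.57 to 0.02, -0.13 and 0.05 (3.84 ± 0.31).

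Of 82 respiratory chain genes 45 fell and 2 rose, with a median of -0.34 (-0.18 with normexp). That is a fall of small size beside the all-gene median of -0.17. Most of these genes were bright, and in the brightest bin of all genes 49.0% fell, with a median of -0.24. In complex I 25 of 37 subunits fell and none rose, and in complex V 9 of 15 fell. In complex II 2 of 4 fell and in complex III 3 of 9. Of 13 complex IV genes in the brighter part of all genes 6 fell. Ndufa4, an electron transport subunit, fell from 5.34, 5.25 and 5.54 to 4.57, 4.72 and 4.65 (-0.73 ± 0.10, adjusted p = 0.000736). The genes that rose were the tissue-specific isoforms Cox6a2 (2.92), of muscle, and Cox4i2 (1.23). The citric acid cycle was near the background, as 10 of 21 enzymes fell and 3 rose (median -0.18, -0.025 with normexp), with Dld, a shared subunit of its dehydrogenases, at -0.72 ± 0.08, and the adenine nucleotide carrier Slc25a4 fell by 0.74. Of 16 genes of fat uptake and lipoproteins 11 rose and 4 fell, among the risers the carrier Fabp4 (4.75) and the lipase Lpl (3.1), while the lipase inhibitor Angptl4 fell from 4.23, 4.21 and 4.54 to 1.96, 1.67 and 1.61 (-2.58 ± 0.13).

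**Figure D3:**
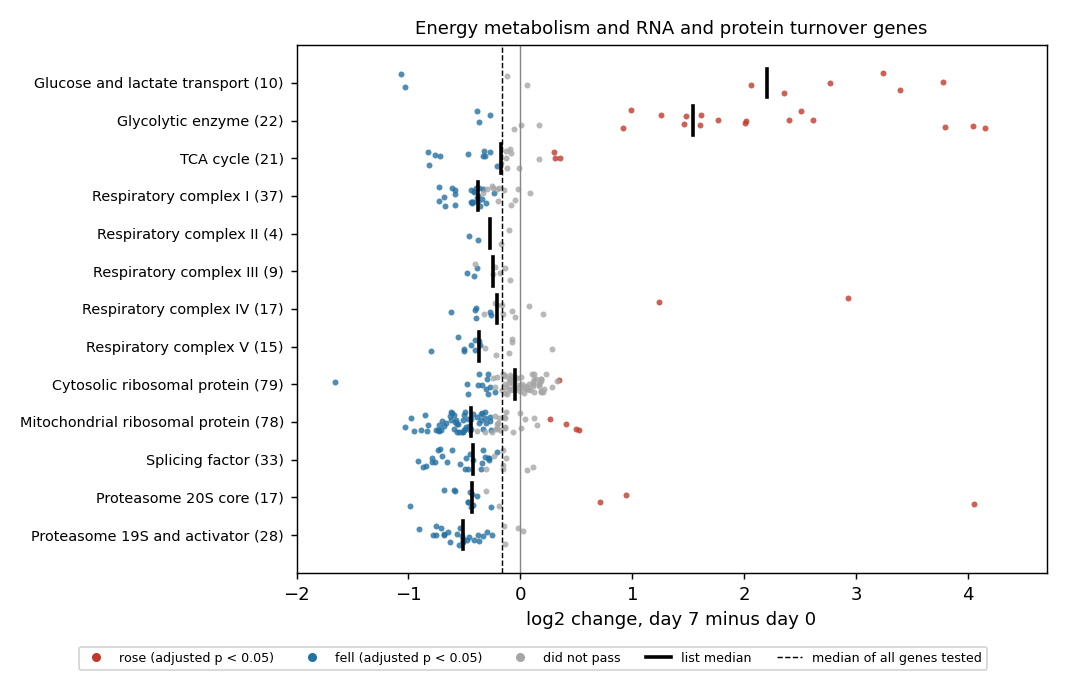
Log2 change from day 0 to day 7 (horizontal axis) of every tested gene of 13 groups of energy metabolism and RNA and protein turnover (rows, number tested in brackets), with the group medians as thick bars and the median of all genes as a dashed line. Glycolytic enzymes (median 1.54) lie to the right, respiratory complexes, mitochondrial ribosome, splicing and proteasome genes lie left of 0, and cytosolic ribosomal proteins sit around 0 (-0.05).

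Genes for amino acid supply and the stress response run by Atf4 rose together. 15 of 19 synthesis enzymes, 8 of 10 amino acid transporters and 10 of 12 stress regulators rose, with medians of 0.89, 1.57 and 1.49. Nupr1, a stress-induced chromatin protein whose promoter is printed above, rose from -1.41, -1.67 and -1.45 to 4.65, 4.54 and 4.40 (6.04 ± 0.11, 65.8-fold, adjusted p = 1.05e-06). Chac1, which degrades glutathione, rose from -0.73, -1.3 and -0.95 to 3.56, 3.03 and 3.43 (4.33 ± 0.19), and Trib3, a brake on Atf4, rose from 0.01, -0.38 and -0.21 to 4.26, 4.26 and 3.90 (4.33 ± 0.15). Atf4 itself rose by 1.25 ± 0.09, and Ddit3, its partner in cell death, by 0.74.

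The enzymes of serine and proline synthesis were among the risers. Phgdh, the first enzyme from glucose to serine, rose from 3.75, 3.49 and 3.76 to 5.42, 5.36 and 5.50 (1.76 ± 0.10). Pycr1, the last enzyme of proline synthesis, rose from -2.46, -2.47 and -2.51 to 0.38, 0.24 and 0.19 (2.75 ± 0.08, 6.73-fold, adjusted p = 2.19e-06). Asns (1.6) and the one-carbon enzymes Mthfd2 (1.47) and Shmt2 (1.16) rose, and glutamine synthetase (Glul) fell by 0.58. Cytosolic tRNA synthetases, another known set of Atf4 targets, split into 9 that rose and 5 that fell of 20. The folding branch of the stress response moved less, since Hspa5, the main chaperone of the endoplasmic reticulum, rose by 0.23 ± 0.08 (adjusted p = 0.0356).

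Genes of RNA processing and protein breakdown fell by small amounts. No splicing factor of 33 rose and 25 fell (median -0.42, -0.26 with normexp). Tra2b, a splicing activator, fell from -0.24, -0.47 and -0.40 to -1.27, -1.47 and -1.12 (-0.92 ± 0.11, adjusted p = 0.000511). Among hnRNP proteins, which package new transcripts, 17 of 20 fell, such as Hnrnpm (-0.84) and Hnrnpa1 (-0.74), and Hnrnpr fell by 0.87 on one probe with 0.73 on another. Mitochondrial ribosomal proteins fell in 53 of 78 cases and rose in 4 (median -0.44, -0.28 with normexp), with Mrpl41 lowest (-1.03 ± 0.12). Cytosolic ribosomal proteins stayed near 0, as 1 of 79 rose and 12 fell with a median of -0.05, which was 0.05 under quantile normalization and 0.12 with normexp, so its sign depended on the scaling.

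The proteasome was split by subunit. Of 45 genes 36 fell and 3 rose (median -0.47, -0.30 with normexp), and the 3 that rose were Psmb8, Psmb9 and Psmb10, the catalytic subunits that replace the standard ones in cells exposed to interferon. Psma4, a standard core subunit, fell from 4.67, 4.44 and 4.51 to 3.51, 3.51 and 3.64 (-0.99 ± 0.09, adjusted p = 0.000129). Psmb8 was below background at day 0 and at -2.33, -2.08 and -2.80 at day 7, at least 4.03-fold higher (4.05 ± 0.28). Psmb9 rose from -2.85, -3.05 and -2.48 to -2.11, -1.43 and -1.99 (0.94 ± 0.22), and Psmb10 by 0.71 ± 0.10. In the 19S cap and activators 24 of 28 genes fell and none rose.

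Most mitotic genes rose, and few genes of DNA replication did. Of 26 mitosis genes 22 rose and none fell (median 0.56), whereas of 26 replication genes 4 rose and 10 fell (median -0.20, -0.11 with normexp). Over all genes 28.6% rose and 41.9% fell, so the falls of replication genes were near the background. Mki67, the common marker of cycling cells, went from 3.79, 3.84 and 3.64 to 4.56, 4.69 and 4.73 (0.90 ± 0.09, adjusted p = 0.000181). Prc1, which bundles microtubules as cells divide, went from 2.26, 2.16 and 2.27 to 3.51, 3.57 and 3.51 (1.3 ± 0.07, 2.46-fold). The helicase subunit Mcm4 fell from 5.13, 5.06 and 5.14 to 4.43, 4.52 and 4.54 (-0.61 ± 0.07). In all 3 genes the groups lay apart, though the shifts were small beside those of matrix genes.

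Inhibitors of the cell cycle rose beside the mitotic genes. Cdkn2b, an inhibitor induced by TGF-beta, was at -3.47, -6.68 and -4.66 at day 0, well above background on 1 array, and at 0.41, 0.80 and 0.31 at day 7 (5.44 ± 0.75, adjusted p = 0.000752, another probe 4.05). Cdkn2a, known from ageing cultures, was below background at day 0 and at least 4.97-fold higher at day 7, and Cdkn1a, the inhibitor induced by p53, rose from 0.10, -0.71 and -0.32 to 3.28, 3.38 and 3.02 (3.53 ± 0.21). The imprinted inhibitor Cdkn1c went the other way, from 8.04, 7.90 and 8.21 to 5.65, 5.47 and 5.66 (-2.45 ± 0.11). Cyclin D1 (Ccnd1) rose 7.59-fold. Other p53 targets rose in part, with 14 of 23 higher and 4 lower, among them Pmaip1 (4.10) and Bbc3 (0.72) higher and Bax (-0.52) and Trp53inp1 (-1.91) lower.

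Chromatin genes as a list were near the background, with 16 of 37 lower and 10 higher, but some abundant ones of embryonic cells fell. Hmgn2, an abundant nucleosome-binding protein, fell from 7.47, 7.4 and 7.56 to 6.37, 6.39 and 6.48 (-1.07 ± 0.08, adjusted p = 5.16e-05), and Hmga2, a growth-promoting factor repressed by let-7, fell from 5.27, 5.41 and 5.37 to 2.84, 2.64 and 2.86 (-2.57 ± 0.09). The replacement histone H3f3a fell by 1.01, while replication-dependent histone genes split evenly, with 10 higher and 10 lower of 40. Lamin A (Lmna), a lamin of stiff and differentiated cells, rose by 1.89, and Lmnb1 fell by 0.39.

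Genes of antigen presentation and inflammation rose, many of them from near background. Of 24 tested antigen presentation genes 21 rose and none fell (median 1.86, 1.78 at the bounds, 0.97 with normexp). Tap2, a peptide pump for class I molecules, rose from -4.72, -3.92 and -3.90 to 1.24, 1.18 and 1.05 (5.34 ± 0.23, adjusted p = 6.37e-06). B2m, the constant chain of class I, was bright at both times and rose from 3.92, 3.83 and 4.06 to 5.06, 4.76 and 4.90 (0.97 ± 0.11). H2-Ab1, a class II chain, rose from 0.23, -0.25 and -0.06 to 3.80, 4.17 and 3.45 (3.83 ± 0.21), and Cd74, its chaperone, from -4.08, -3.85 and -4.0 to 0.09, -0.42 and -0.38 (3.74 ± 0.15). Their regulator Ciita was too dim to be tested.

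Interferon-stimulated genes rose in 22 of 28 tested cases and 3 fell (median 1.64, 0.64 with normexp), while among the 6 brightest, in the brighter part of all genes, 3 rose and 2 fell (median 0.19). Ifit3, which blocks foreign RNA and whose promoter is printed above, was below background at day 0 and at -0.86, -1.06 and -0.79 at day 7, at least 11.4-fold higher (5.50 ± 0.16). Irgm1, a guanosine triphosphatase of cell defence, rose from -0.91, -1.04 and -1.01 to 1.80, 1.55 and 1.64 (2.65 ± 0.09, adjusted p = 3.71e-06). Iigp1, a relative of Irgm1, fell by 1.34, and Stat2, which carries the interferon signal, fell by 0.66. 8 listed genes, among them Mx1 and Rsad2, were not tested because their probes were too dim.

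Macrophages carry class II and many of these genes, and their markers stood as follows. The 10 summed markers were 4.19 to 4.89 at day 0 and 3.62 to 6.27 at day 7. Aif1, Ptprc (2.25) and Cd68 (1.14, another probe 2.09) rose. Csf1r fell by 0.46 on its brightest probe with the opposite sign on another, and C1qb and Adgre1 did not pass. Cx3cr1, C1qa, Fcgr1, Aif1 and Tyrobp were below background at day 0, and Fcgr1 also at day 7. The part of such cells in these results was not tested.

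Chemokine, cytokine and NF-kB genes rose in 37 of 51 tested cases and fell in 7 (median 1.71, 1.21 at the bounds, 0.36 with normexp). Most were dim. In the brighter part of all genes 1 of 4 chemokines rose and 2 fell (median -0.29). Of 8 cytokine and receptor genes there 4 rose and 1 fell (0.25), and of 5 NF-kB and STAT3 targets 4 rose and none fell (0.45). Ccl2, which calls in monocytes, was below background at day 0 and at -0.88, -0.55 and -1.11 at day 7, at least 11-fold higher (4.0 ± 0.25, adjusted p = 2.37e-05). Cx3cl1, a membrane-bound chemokine of epithelium and endothelium, rose from -2.44, -2.50 and -2.03 to 2.92, 2.53 and 2.68 (5.04 ± 0.16, 32.8-fold). Il34, a ligand of the macrophage growth factor receptor, rose (3.70), and the homeostatic chemokine Cxcl12 fell by 0.45. 13 of 15 NF-kB and STAT3 targets rose, such as Tnfaip3, which shuts NF-kB off, from -1.16, -1.08 and -1.3 to 0.59, 0.39 and 0.37 (1.63 ± 0.10). The cytokine genes Il1b, Il6 and Tnf were not well above background throughout either group and were not tested.

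Complement and acute phase genes rose in 20 of 30 tested cases and fell in 3 (median 1.16, but 0.59 at the bounds and 0.07 with normexp). C1ra, a protease that starts the classical cascade, rose from -2.40, -2.69 and -2.71 to 1.99, 2.0 and 2.12 (4.64 ± 0.11, 24.9-fold, adjusted p = 1.54e-06). Cfb, of the alternative route, was below background at day 0 and at -0.59, -1.19 and -0.76 at day 7, at least 11.8-fold higher. C3 rose by 0.41, and the protective receptor Cd55 fell by 0.88. In prostaglandin synthesis Ptgs2, the inducible cyclooxygenase, was below background at day 0 and even at day 7 (-0.12, -0.08 and -0.10), at least 19.9-fold higher (6.41 ± 0.12). Ptgds, which makes prostaglandin D2, was at least 102-fold higher. Ptges, the synthase of prostaglandin E2, did not pass, at 5.18, 5.12 and 5.17 and then 4.95, 5.07 and 4.97 (-0.16 ± 0.07, adjusted p = 0.0859). The receptors Ptger1 (3.16) and Ptger4 (1.08) rose and Ptger3 fell by 0.99.

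Hox genes, whose clusters encode position along the body, differed by cluster. In the Hoxb cluster 6 of 8 tested genes rose and 1 fell, in Hoxa 1 of 11 rose and 7 fell, in Hoxc none of 7 rose and 4 fell, and in Hoxd 2 of 9 rose and 3 fell. Hoxb8 rose from 1.83, 1.86 and 2.07 to 3.25, 3.31 and 3.06 (1.29 ± 0.11, adjusted p = 8.52e-05). Hoxd13, of digits and the genital bud, went from 1.72, 1.70 and 1.68 to -1.81, -1.50 and -2.80 (-3.74 ± 0.31, 13.4-fold lower), and Hoxa13 from -0.92, -0.64 and -0.74 to -2.75, -2.71 and -4.11 (-2.43 ± 0.37). Hoxd11, needed for kidney growth, rose by 0.50 on its brightest probe and had another probe at -0.62.

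**Figure D4:**
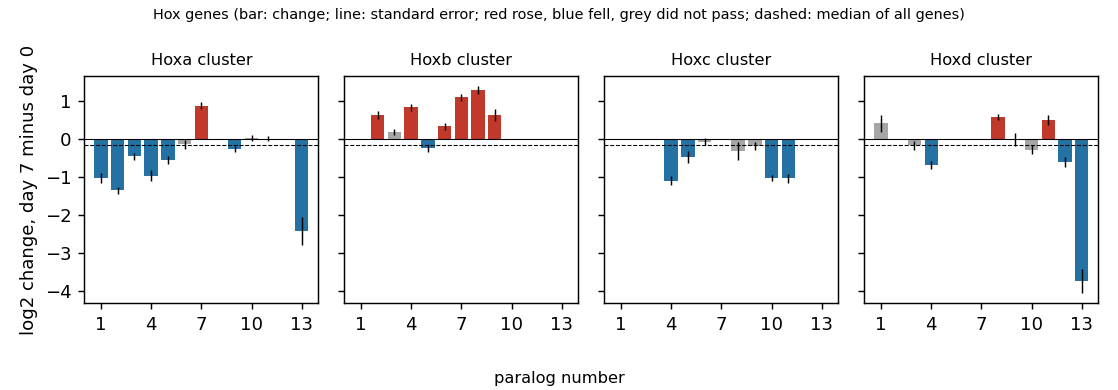
Log2 change from day 0 to day 7 (vertical axis, bars with standard errors) of each tested Hox gene by paralog number (horizontal axis) in the 4 clusters, red where it rose, blue where it fell and grey where it did not pass, with the median of all genes dashed. Hoxb bars point up but for Hoxb5 (-0.25), and Hoxd13 (-3.74) and Hoxa13 (-2.43) are the deepest.

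Other patterning factors followed no single direction, with 8 of 20 genes of the Irx, Pax, Emx and related families higher and 8 lower. Irx1, a factor of the intermediate nephron, rose from -2.71, -3.67 and -3.16 to 2.57, 2.18 and 2.78 (5.69 ± 0.27). Pax3 (-1.91) and Pax7 (-2.23, at least 2.81-fold lower), of muscle and neural crest, fell. Summed skeletal muscle markers stood beside them at 4.81 to 5.33 and then 2.80 to 3.44, and their part was not tested.

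Imprinted genes, which are active from one parental copy and mostly govern fetal growth, fell in 25 of 36 tested cases and rose in 7 (median -0.78). 15 of 19 paternally expressed genes fell (median -1.05, -0.60 with normexp), and 10 of 17 maternally expressed ones. Magel2 fell from 0.73, 0.85 and 0.62 to -2.48, -2.16 and -2.07 (-2.97 ± 0.13, adjusted p = 6.72e-06), and Peg3 from 3.04, 3.25 and 3.03 to 1.17, 0.99 and 1.33 (-1.95 ± 0.12). H19, the maternal non-coding RNA next to Igf2, fell from 9.49, 9.33 and 9.58 to 8.40, 8.52 and 8.39 (-1.03 ± 0.09). Kcnq1, a potassium channel of epithelium, rose (4.32 ± 0.19). Of 14 oncofetal genes 10 fell and 2 rose. The RNA-binding growth factor regulator Igf2bp3 fell by 1.51, and Afp, a fetal relative of serum albumin and one of the endoderm markers above, rose from -3.85, -5.10 and -5.67 to 1.05, 0.67 and 1.09 (5.81 ± 0.44).

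Neuronal identity genes fell in 18 of 24 tested cases and rose in 3 (median -1.32, -0.68 with normexp). Nefm, a neurofilament, fell from 2.81, 2.86 and 3.09 to -2.12, -2.58 and -1.85 (-5.11 ± 0.19, 34.4-fold lower, adjusted p = 4.56e-06), and Phox2a, a factor of autonomic neurons, from 2.09, 2.04 and 2.25 to -2.17, -2.21 and -2.73 (-4.50 ± 0.16). Mapt, which binds axonal microtubules, rose from -0.53, -0.20 and -0.36 to 1.66, 1.31 and 1.57 (1.87 ± 0.13). Synapse and channel genes, by contrast, counted 9 higher and 9 lower of 24.

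Genes of the primary cilium and of cystic kidney disease fell in 13 of 24 cases and rose in 6. Among the risers was Pkhd1, which is mutated in recessive cystic disease and went from -1.46, -1.48 and -1.57 to 1.03, 0.76 and 1.1 (2.46 ± 0.11). Among the basal body and transition zone genes Iqcb1 fell from 0.83, 0.45 and 0.91 to -1.11, -0.70 and -0.89 (-1.63 ± 0.16, adjusted p = 0.000167), and Bbs4 by 1.07 ± 0.10.

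Transporters and detoxifying enzymes differed by class. Of 30 organic ion carriers 22 rose and 2 fell (median 1.36, 0.64 at the bounds, 0.04 with normexp). Only 3 of them lay in the brighter part of all genes, where none rose and 1 fell (median -0.12). Slc47a1, which expels organic cations into urine, was below background at day 0 and at -1.28, -1.44 and -1.21 at day 7, at least 8.58-fold higher (5.40 ± 0.12, adjusted p = 1.5e-06). Salt and acid-base carriers rose in 12 of 33 cases and fell in 7. Amino acid carriers rose in 26 of 46 cases and fell in 9. Mitochondrial carriers fell in 18 of 39 cases, near the 41.9% of all genes, and rose in 7 (28.6% of all genes). Cytochromes P450 of the first 4 families counted 12 higher and 6 lower of 29, and Cyp2r1, which activates vitamin D, fell from 1.69, 1.73 and 1.33 to -0.43, -0.66 and -0.42 (-2.09 ± 0.13, another probe -0.73). Sult1c2, a sulfotransferase, rose from -3.91, -4.04 and -6.56 to 0.43, 0.08 and 0.74 (5.26 ± 0.70).

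Whether these changes also occur in embryonic kidney in the same culture was asked with the lone arrays of E11.5 kidney before and after 7 days. In a joint fit of 8 arrays, where each kidney array was assumed to vary like an organoid replicate, the organoid change lay above that of kidney for 8.8% of 17504 genes and below it for 7.09% (adjusted p under 0.05). These 1540 and 1241 genes became 2677 and 4788 with normexp, and 861 and 613 without day 7 replicate 3. All 26 mitosis genes were lower in cultured than in fresh kidney (median -0.96), and for 25 of them the organoid change lay above that of kidney, with a median difference of 1.48. Mki67 was at 5.18 in fresh and 4.62 in cultured kidney, while the day 7 organoids were at 4.56 to 4.73 (difference of changes 1.46 ± 0.18, adjusted p = 0.00753). Among replication genes 12 of 26 lay above the kidney change (median difference 0.77), and among nucleolar factors 7 of 21.

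Neuronal and class II genes differed as well. For 12 of 26 neuronal identity genes the organoid change lay below that of kidney, and for none above it (median difference -2.05). Phox2a was at 0.10 in fresh and -1.17 in cultured kidney, a smaller drop than in organoids (difference -3.23 ± 0.34, adjusted p = 0.00502). Class II genes lay above the kidney change in 5 of 8 cases, such as H2-Ab1, at 0.59 in fresh and 1.28 in cultured kidney (difference 3.13 ± 0.43, adjusted p = 0.00944), and Cd74 (difference 3.11 ± 0.31). Pkhd1 went from -1.09 to -1.81 in kidney and rose in organoids (difference 3.18 ± 0.22, adjusted p = 0.00183). No complex I gene of 37 passed the test in either direction, and in complex IV 1 gene of 17, Cox8b, lay below the kidney change. Nupr1 differed by 6.36 in kidney against 6.04 in organoids (difference -0.32 ± 0.22, adjusted p = 0.344). Each kidney value rests on 1 array, on the slide of day 0 replicates 1 and 2, so slide and tissue cannot be told apart in part of this comparison.

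**Figure D5:**
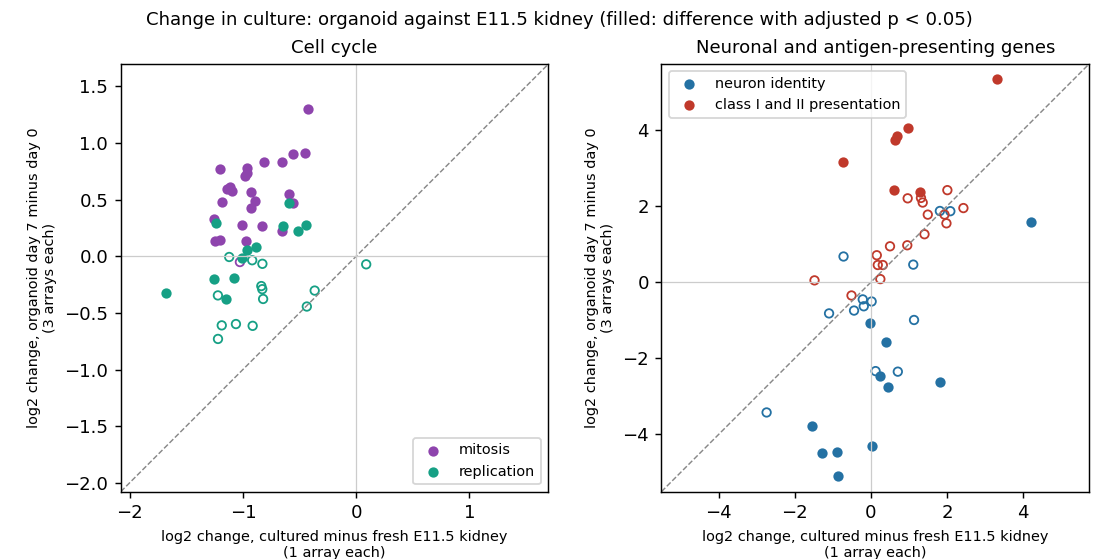
Log2 change in culture of organoids (vertical axis, 3 arrays at each time) against that of E11.5 kidney (horizontal axis, 1 array at each time) for cell cycle genes (left) and neuronal and antigen-presenting genes (right), with the line of equal change dashed and filled symbols where the difference passed at an adjusted p under 0.05. Mitosis genes lie above the line, with a median difference of 1.48, and neuronal genes mostly below it (-2.05).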

How the data were processed

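RNA of whole organoids or kidneys was amplified, labelled with Cy3 and hybridised to one-colour Agilent arrays. Spot intensity was background-subtracted and detrended by Feature Extraction, per the file headers, which name version 11.5.1.1, while the submitters' processing notes name 10.7.3.1. The authors' deposited log2 table equalled the log2 signal minus a constant per array and was used as an alternative. Here, log2 of the processed signal minus the array's 75th percentile was used. Control spots and outlier flags were left out, spots of a probe were averaged, and each gene was represented by its brightest probe, judged by the mean of all 12 arrays. Names came from RefSeq accessions where these matched (28026 probes), and otherwise from symbols or the array file, and 22881 probes stayed unnamed. To be tested, a gene had to be flagged well above background throughout 1 group or more.

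Organoid groups were compared with limma 3.58.1 in R 4.3.3 (lmFit and eBayes, 6 arrays), two-sided, with Benjamini-Hochberg adjustment over all genes and a threshold of 0.05. A second fit on 8 arrays compared the organoid change with that of E11.5 kidney. On simulated data of 16203 genes, 74 of 100 genes changed 2-fold and 97 of 100 changed 4-fold were recovered. No other gene was changed there, whereas 70.5% were called in the data. The adjustment depends on that share, so recovery in the data may differ. The members and gene lists were chosen with earlier results of these data known. Every list member could be named, with up to 4 risers and 4 fallers per list in full, plus the 10 largest differences from kidney each way. A few genes that this rule would name are not reported here. Alternatives were other background corrections, scalings, filters and probe rules, blocks for slide and replicate, and leaving out each array. The number of arrays limits the precision.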

Additional observations from a re-analysis of the deposited data

Results flagged for a closer look

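The list members whose organoid change differed most from the change of E11.5 kidney in culture are given here because the difference itself passed the test (limma, joint fit of 8 arrays, adjusted p under 0.05), with 1 kidney array at each time. Neuronal genes were among those where the organoid change lay below that of kidney. The difference was -6.288 for Scg2, a secretory granule protein, -4.437 for Stmn3, -4.335 for Elavl3, an RNA-binding protein of neurons, and -4.251 for Nefm. It was -5.918 for Cox8b, a respiratory subunit of muscle. It was -5.013 for the metalloproteinase Mmp9, -3.995 for Igfbp7, -3.912 for the calcium-binding S100g and -3.837 for Cyp1a1. Scg2 and Mmp9 were too dim in organoids to be tested there. Fresh kidney was below background for Scg2, Cox8b, Mmp9, Igfbp7 and Cyp1a1, and day 7 organoids for Elavl3, so the exact size of these differences depends on signals at the floor.

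The organoid change lay above that of kidney by 8.158 for Lrat, which stores retinol as ester. For Krt23 the change was above by 6.546 and for Ankrd1 by 5.41. Levels need not follow, as Krt23 was at 2.71 in day 7 organoids and 3.03 in cultured kidney. The difference was 4.831 for Hoxb1, 4.739 for Gata1 and 4.049 for Dnah11, all below background on every organoid array, so these 3 values rest on the kidney arrays. Lrat, Krt23, Ankrd1 and Tbxas1 were below background on all day 0 arrays, Ankrd1 also in fresh kidney, and Lrat, Hoxb1, Gata1 and Dnah11 in cultured kidney. The exact size of those differences likewise depends on signals at the floor. It was 4.756 for Pcolce2, an enhancer of procollagen trimming, 4.665 for Tbxas1, the thromboxane synthase and 4.185 for the endothelial factor Sox18.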

How the results depend on the processing

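Of 430 named or list genes followed, 368 kept their direction and call under the 17 alternatives, and 11 changed sign under one. With normexp these were Col11a2 (-0.13), Gria1 (-0.020), Hsd11b1 (-0.011), Prph (-0.29), S100b (-0.20), Shh (-0.15) and Tek (-0.21). With the mean of all probes they were Ccl25 (0.0053), Hoxd11 (-0.058), Itga6 (0.60) and S100a16 (1.20). Calls were lost for 24 genes with slide as a block and for 20 on the slide that holds both groups. Over all genes, the fit with slide as a block called 4020 higher and 6002 lower and kept 9523 of the 11429 calls. The 6788 genes that fell became 10265 without the background filter, where 23564 genes were tested. The 4641 genes that rose became 4705, and the median change of all genes went from -0.17 to -0.33. Counts of genes whose organoid change lay above (1540) or below (1241) that of kidney became 2677 and 4788 with normexp, and the lower count became 741 with median scaling. The cause was not tested. Leaving out an array gave 861 to 1503 above and 613 to 1241 below, with 897 and 628 without day 7 replicate 1 and the lowest without day 7 replicate 3. Same-numbered arrays did not deviate together (correlations -0.0047, -0.127 and -0.0045), so the numbers do not pair them. A fit with a replicate block called 4369 genes higher and 6070 lower, against 4641 and 6788. Genes that were dim on the day 0 arrays limit the folds.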

Other observations

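Grouped by the letters of their symbols, families of transcription genes moved in different directions. Of 366 tested genes whose symbol starts with Zfp, zinc finger proteins, 266 fell and 21 rose (median -0.54, beside -0.17 for all genes). Of 22 Taf genes, which belong to the general transcription factor TFIID, 18 fell (-0.65). So did 22 of 31 Med genes of the Mediator complex (-0.42) and 11 of 14 Ints genes of the Integrator complex (-0.56). None of the Taf or Med genes rose. Families of other kinds fell as well, such as all 10 tested Commd genes (-0.66), 62 of 104 olfactory receptor genes (Olfr, -0.68) and 14 of 19 Krtap genes (-0.57). The Olfr and Krtap genes were dim. Their median levels at day 0 were -3.30 and -2.19, and dim genes carry the most doubt because the day 0 arrays were dimmer. The part of array scaling in the falls of these dim families was not tested. Of 16 Klf transcription factors 9 rose and 2 fell (0.76), and Sox genes split with 6 each way. In the other direction also went Kcnj genes, inward rectifier potassium channels, with 8 of 11 higher (2.36), and Rassf genes, with 9 of 10 higher (1.17). Kcnj and Rassf genes were dim too, with median levels at day 0 of -3.93 and -2.53. The same doubt holds for their rises, and the part of array scaling in them was not tested.

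Among clock genes 9 of 20 rose and 3 fell. Bhlhe40, a repressor, rose by 4.22, and Per1 fell by 0.73. The metal-binding Mt1 rose from 4.40, 3.97 and 4.20 to 7.12, 6.76 and 6.75 (2.69 ± 0.15). Of 13 NRF2 targets 9 rose and 2 fell (median 0.87, 0.57 with normexp). In lysosomes 13 of 25 cathepsins and hydrolases rose and 4 fell, with Ctsh highest (4.34 ± 0.16). Of 21 membrane and proton pump genes 10 fell and 6 rose, near the 41.9% and 28.6% of all genes.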
